A study of Mus musculus with 30 samples.

Results

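Macrophages of Reversa mice were compared with those of COX-2>COX-1 mice after lipopolysaccharide (LPS), a comparison that took in 12 of the 30 samples of the study, chosen by their genotype and treatment labels. Reversa mice carried an exchange at both cyclooxygenase loci, Ptgs1 (COX-1) and Ptgs2 (COX-2). COX-2>COX-1 mice carried the exchange at the Ptgs1 locus alone. By what is known of these lines, in COX-2>COX-1 mice the Ptgs1 locus holds the coding sequence of Ptgs2, and in Reversa mice the Ptgs2 locus also holds that of Ptgs1. Both genotypes thus shared the altered Ptgs1 locus and differed at the Ptgs2 locus, which was exchanged in Reversa and native in COX-2>COX-1 mice. All were C57BL/6 mice of 12 to 16 weeks that received 2 mg/kg of LPS into the peritoneum, with cells harvested 6 h later. Wild-type mice on the same treatment (WT+LPS) are quoted where they place a level, and COX-1>COX-2 mice, with the exchange at the Ptgs2 locus alone, in 1 further test. Those 2 groups and wild-type mice given the PBS vehicle in place of LPS (WT-LPS), 6 samples each, also entered the fit and so its estimate of the spread. No sample analysed here came from an exchange mouse given vehicle, so a difference between genotypes before LPS and a difference in the response to it cannot be told apart. The exchange is in every cell of the animal, so the macrophages measured here were not the sole cells affected.

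Cyclooxygenases turn arachidonic acid, which cytosolic phospholipase A2 (Pla2g4a) frees from membranes, into prostaglandin H2, from which cells make prostaglandins and thromboxane. In macrophages Ptgs1 is made at a fairly steady level, whereas Ptgs2 is switched on by LPS through Toll-like receptor 4 and by factors that bind its promoter. The products act on G protein-coupled receptors, among them Ptger2 and Ptger4, which raise cyclic AMP and so activate CREB, Ptger3, which lowers it, and Ptgir, the prostacyclin receptor. Prostaglandin E2 is known to hold back several macrophage cytokines and chemokines and to favour others.

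The exchange puts each coding sequence under the other gene's control region, so the regions around the annotated starts of both genes are shown, as RefSeq gives them in mouse build GRCm38.p6 (300 bases a gene). The Ptgs1 region is at chr2:36230176-36230475 on the plus strand and the Ptgs2 region at chr1:150099781-150100080 on the plus strand. Capitals mark matches on either strand to the letters searched, which were TGACGT (the CRE, to which CREB binds), CACGTG (E-box), TTGCNNAA (C/EBP), TATAAA and, by name, the interferon-stimulated response element and the NF-kB consensus.
Ptgs1: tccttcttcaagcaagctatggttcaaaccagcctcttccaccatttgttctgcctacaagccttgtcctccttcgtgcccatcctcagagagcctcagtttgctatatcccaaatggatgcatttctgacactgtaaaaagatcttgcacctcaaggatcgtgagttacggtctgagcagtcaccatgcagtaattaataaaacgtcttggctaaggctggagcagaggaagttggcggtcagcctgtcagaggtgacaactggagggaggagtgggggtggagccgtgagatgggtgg
Ptgs2: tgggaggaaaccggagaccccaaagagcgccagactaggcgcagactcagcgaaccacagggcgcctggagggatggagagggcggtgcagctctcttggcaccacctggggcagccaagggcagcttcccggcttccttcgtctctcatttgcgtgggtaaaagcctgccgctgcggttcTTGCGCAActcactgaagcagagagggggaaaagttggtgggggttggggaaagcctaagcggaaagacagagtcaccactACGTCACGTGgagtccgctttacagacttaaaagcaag
The Ptgs2 region held a C/EBP match at bases 182 to 189, counted from its 5′ end, and a CRE match at bases 263 to 268 that overlapped an E-box match at bases 267 to 272. The Ptgs1 region held none of the letters searched. Among the 32851 regions in the table, 7.51% held the CRE letters, 7.15% the E-box, 10.8% the C/EBP and 13.6% the TATAAA letters. The NF-kB consensus was in 8.46% and the interferon-stimulated response element in 3.44%. Of the genes named below as changed, 18 had 1 or 2 regions in the table, 22 regions in all. The CRE letters were in 4 of these regions (Ptgs2, Bcl6, Flt1 and Mafg), the E-box in 3, the C/EBP letters in 2 and TATAAA in 5 (Cxcl9, Flt1, Il13, Lta and Tlr8). The NF-kB consensus was in 1 (Flt1) and the interferon-stimulated response element in 0.

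Each group had 6 deposited samples. Reversa samples 55 and 56 differed little beyond counting error (chi-square 1.26 per gene, p = 0.0083, against 21.98 for the next closest of 75 pairs within groups), so they were averaged and count as 1 sample, leaving 5 Reversa and 6 COX-2>COX-1 samples. The panel held 248 target genes, and 202 with a signal above 20 in at least 6 of the 30 deposited columns were tested. Depth, estimated from the steps between low values, was 372829 to 1001712 counts in Reversa and 338039 to 760527 counts in COX-2>COX-1 samples. The signal summed over all genes was 518965 to 647506 in Reversa and 634114 to 773828 in COX-2>COX-1 samples. Reversa sample 51 stood farthest from the others of its genotype (median absolute log2 deviation 0.71, the others 0.26 to 0.64), and COX-2>COX-1 sample 52 from its own (0.48, the others 0.18 to 0.29). None of the 10 macrophage markers on the list was under 20 in all samples of either genotype. The same held for the 4 B cell markers, so this does not by itself identify the cells.

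The exchanged genes followed the genotype labels in every sample. Ptgs1 was well above background in Reversa cells and not in COX-2>COX-1 cells, and Ptgs2 stood far lower in Reversa cells. The signal of Ptgs1 was 135, 512, 128, 119 and 308 in Reversa samples 51, 52, 53, 54 and the mean of 55 and 56, the order used for Reversa throughout, and between 1 and 5.77 (median 1.81) in COX-2>COX-1 samples. All 6 COX-2>COX-1 values lay under 20, the level taken as background. With values under 20 set to 20, Ptgs1 was at least 10.03-fold higher in Reversa cells (limma, adjusted p = 1.25e-14). Wild-type mice given LPS had 238 ± 71.3 (SD, n = 6), and Reversa differed from them by -0.19 (adjusted p = 0.801) on the log2 scale, which did not pass.

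The signal of Ptgs2 was 88.04, 282, 308, 487 and 293 in Reversa and between 4714 and 10194 (median 5320.3) in COX-2>COX-1 samples, with no overlap. It was 24.08-fold lower in Reversa cells (log2 change -4.59, SE 0.48, adjusted p = 3.79e-08). Reversa cells had a Ptgs2 signal above 20 in every sample, the lowest being that of sample 51. By the design given above, both genotypes hold the coding sequence of Ptgs2 at the Ptgs1 locus. COX-2>COX-1 mice hold it at the native Ptgs2 locus as well. The share of each locus in the signal was not tested. By exact permutation of the 11 samples, two-sided, p = 0.0043 for each of both genes, the smallest value that groups of 5 and 6 allow, and 0.0043 after adjustment over both. Both are the exchanged genes, whose levels follow from the genotypes, so this test checks the labels alone. Wild-type mice had 4909.9 ± 1135 (SD, n = 6), against which Reversa differed by -4.23 (adjusted p = 4.1e-07) and COX-2>COX-1 by 0.36 (adjusted p = 0.857) on the log2 scale. All 3 pairwise differences share samples and are not independent. Which stretch of each transcript its probe binds was not known.

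**Figure D1:**
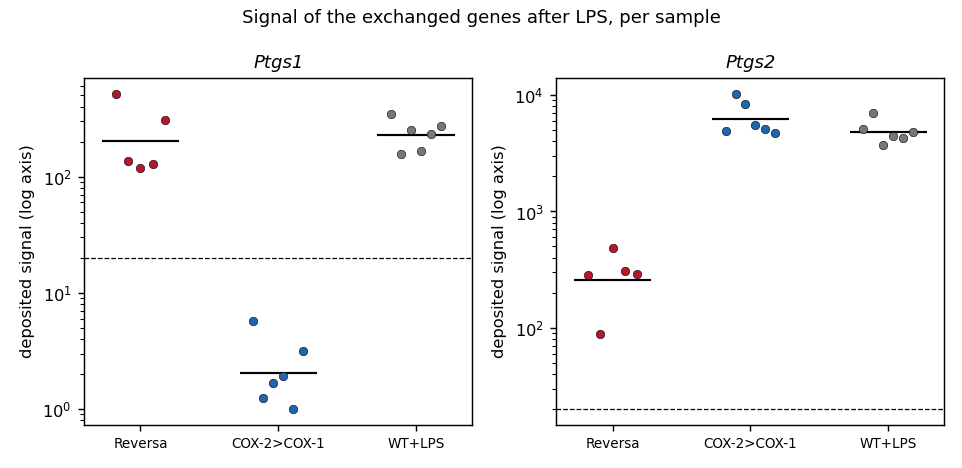
Deposited signal of Ptgs1 and Ptgs2 per sample on log axes in Reversa, COX-2>COX-1 and WT+LPS mice; each point is 1 sample (Reversa 55 and 56 averaged), solid lines are geometric means and the dashed line is a signal of 20. Ptgs1 lies under the dashed line in all 6 COX-2>COX-1 samples, and Ptgs2 lies between 88.0 and 487 in Reversa, below all COX-2>COX-1 samples.

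Beyond the exchanged genes, Mef2a, Mafg, Creb1, Limk1, Cd55, Il13, Hspb1, Ppp1r12b, Flt1 and Ptgir were higher in Reversa than in COX-2>COX-1 cells. Lower in Reversa than in COX-2>COX-1 cells were Tlr8, Ccl5, Cxcl9, Cd4, C1qa, Ptger3, Rapgef2, Bcl6, Lta and H2-Ea-ps. In all, 22 of the 202 tested genes, the exchanged genes among them, passed at an adjusted p under 0.05 (limma on log2(signal + 1) with all 29 samples in 1 fit, two-sided, Benjamini-Hochberg), which is 10.9%. A fit of the 2 genotypes alone passed 9, which were Ptgs1, Ptgs2, Mef2a, Limk1, Il13, Tlr8, Ccl5, Cxcl9 and Cd4; the other 13 had adjusted p of 0.085 to 0.24 there. Of the 22, 11 were higher (5.45%) and 11 lower (5.45%) in Reversa cells. In 7 genes (3.47% of those tested) no Reversa value overlapped a COX-2>COX-1 value: Ptgs1, Mef2a and Limk1 (1.49%) were higher and Ptgs2, Tlr8, Ccl5 and Cd4 (1.98%) lower in every Reversa sample. The other 15 that passed had overlapping samples. Of the 22, 9 also passed in Reversa against WT+LPS and 2 in COX-2>COX-1 against WT+LPS. The median log2 difference of all 202 genes was -0.14, with 82 above and 120 below 0. Because these are bulk samples, fewer cells of a type and less RNA per cell cannot be told apart.

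The choice of scaling weighs on the genes that were lower. With every sample scaled to an equal total signal, the median of all genes moved by 0.27 on the log2 scale, and 24 genes were higher and 5 lower; at an equal median, which moved it by 0.14, 11 were higher and 4 lower. Lta, H2-Ea-ps, C1qa, Rapgef2, Ptger3 and Bcl6 passed under none of the 4 other scalings. Cxcl9 and Ptgir each failed under 1 of the 4 (adjusted p of 0.075 and 0.054). The other 14 genes that passed did so under all 4, and no gene that passed changed its direction under any of them.

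**Figure D2:**
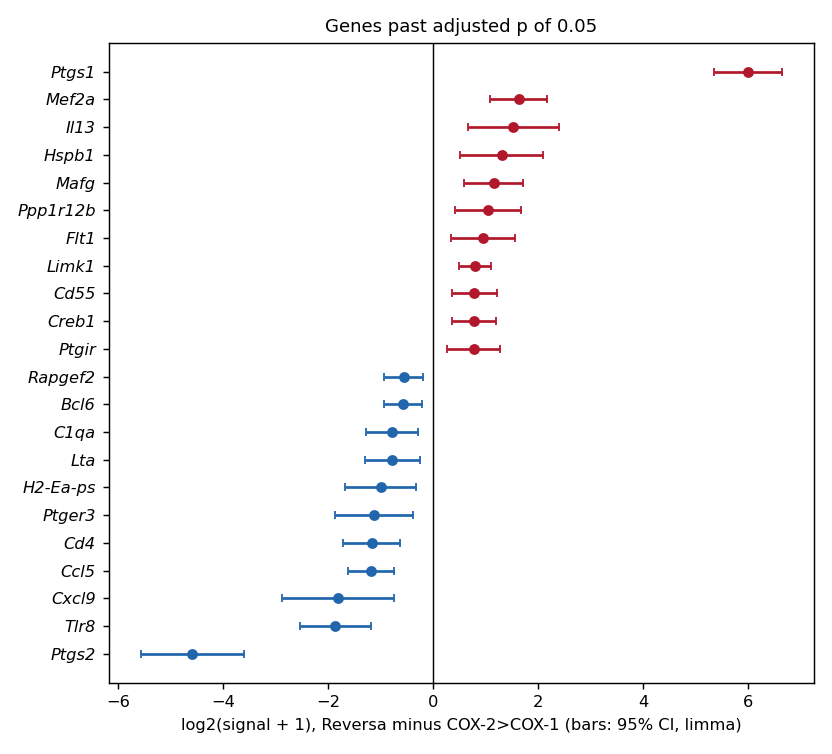
Log2(signal + 1) difference, Reversa minus COX-2>COX-1, of the 22 genes past an adjusted p of 0.05, sorted by size; points are limma estimates, bars their 95% confidence intervals, red higher and blue lower in Reversa. Ptgs1 at 5.99 and Ptgs2 at -4.59 stand apart, and the other 20 genes lie between -1.86 and 1.63.

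Of the 5 prostanoid receptors tested, Ptgir was higher, Ptger3 was lower and 3 did not pass, with a median log2 difference of -0.27. Of these 3, the thromboxane receptor was under 20 in all samples of both genotypes. Ptgir, the prostacyclin receptor, which signals through cyclic AMP, had 82.9, 231, 128, 209 and 323 in Reversa and between 68.99 and 142 (median 102) in COX-2>COX-1 samples (log2 change 0.77, SE 0.25, adjusted p = 0.0459). In 3 of the 5 Reversa samples it exceeded all COX-2>COX-1 samples, while samples 51 and 53 lay within their range. Ptger3, an inhibitory receptor for prostaglandin E2, had 8.16, 49.9, 30.3, 31.1 and 29.8 in Reversa and between 33.5 and 76.5 (median 69.2) in COX-2>COX-1 samples (log2 change -1.12, SE 0.36, adjusted p = 0.0459). Its Reversa values were below the lowest COX-2>COX-1 value in 4 of 5 samples, and that of sample 51 was under 20. Ptger4 and Ptger2, the stimulatory receptors for prostaglandin E2, did not pass: Ptger4 was 151 to 402 in Reversa and 275 to 599.7 in COX-2>COX-1 samples (log2 difference -0.44, 95% interval -0.89 to 0.02), and Ptger2 differed by -0.27 (interval -0.65 to 0.11).

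The enzymes around the cyclooxygenases gave no further call. Pla2g4a, which supplies their substrate, was 469 to 1514 in Reversa and 949 to 1429.6 in COX-2>COX-1 samples (log2 change -0.47, SE 0.24, adjusted p = 0.223). None of the 5 tested lipoxygenases and leukotriene receptors passed by limma (1 at an unadjusted p under 0.05, median -0.03). Alox15, a lipoxygenase typical of resident peritoneal macrophages, differed by -0.69 (interval -1.41 to 0.04), and Ltb4r1, the high-affinity receptor for leukotriene B4, by 0.55 (interval 0.02 to 1.08), with 4 of 5 Reversa samples above and 1 below the COX-2>COX-1 range.

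Among the regulators of transcription, Mef2a, Mafg and Creb1 were higher and Bcl6 lower in Reversa cells. Mef2a, a MADS-box factor of the MEF2 family, had a signal of 359, 289, 336, 252 and 223 in Reversa and between 50.4 and 159.9 (median 98.7) in COX-2>COX-1 samples. Every Reversa sample exceeded every COX-2>COX-1 sample, and the gene was 3.09-fold higher (log2 change 1.63, SE 0.27, adjusted p = 0.000106). In wild-type mice it averaged 263 ± 34.1 (SD, n = 6). Reversa differed from that level by 0.14 (adjusted p = 0.828) and COX-2>COX-1 by -1.49 (adjusted p = 0.000308), both sharing the wild-type samples. Of the 5 genes listed as MEF2 factors and Hdac4, Mef2a alone passed, with a median of -0.14 over the list.

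Mafg is a small MAF protein, a partner of Nfe2l2 at antioxidant response elements. Its signal was 329, 394, 315, 314 and 220.2 in Reversa and between 74.3 and 346 (median 133) in COX-2>COX-1 samples (log2 change 1.15, SE 0.27, adjusted p = 0.00642). The groups overlapped through COX-2>COX-1 sample 52, at 346, while the others of that genotype lay between 74.3 and 161, below all Reversa samples. None of the other 4 genes of the list with Nfe2l2 and Keap1 passed. Wild-type mice had 256 ± 34.01 (SD, n = 6), from which Reversa differed by 0.28 (adjusted p = 0.589) and COX-2>COX-1 by -0.87 (adjusted p = 0.123).

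Creb1 encodes the factor that cyclic AMP signalling activates. Reversa samples had a signal of 49.4, 53.2, 53.1, 60.6 and 39.1 and COX-2>COX-1 samples lay between 20.7 and 45.7 (median 26.8). In 4 of 5 Reversa samples the level was above all COX-2>COX-1 samples (log2 change 0.77, SE 0.21, adjusted p = 0.0192). Wild-type mice had 45.0 ± 5.86 (SD, n = 6). Reversa differed from that level by 0.17 (limma, adjusted p = 0.68) and COX-2>COX-1 by -0.60 (adjusted p = 0.161). Of the 9 AP-1, CREB and MYC factors tested, Creb1 was the 1 that passed, and the median of the list was 0.11. Bcl6, a transcriptional repressor in lymphocytes and macrophages, had 317, 114, 192, 199 and 173 in Reversa and between 253 and 307 (median 283) in COX-2>COX-1 samples (log2 change -0.57, SE 0.17, adjusted p = 0.0393). Its values were below the COX-2>COX-1 range in 4 Reversa samples and above it in sample 51.

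Limk1 separated the groups and Ppp1r12b passed with low values. Limk1, a kinase that phosphorylates cofilin and so stabilises actin filaments, had 272, 402, 229.8, 284 and 307 in Reversa and between 144 and 208 (median 167) in COX-2>COX-1 samples. All 5 Reversa samples exceeded all 6 COX-2>COX-1 samples (log2 change 0.80, SE 0.15, adjusted p = 0.000376). Wild-type mice had 233 ± 24.1 for Limk1 (SD, n = 6). Reversa differed from that level by 0.34 (limma, adjusted p = 0.173) and COX-2>COX-1 by -0.46 (adjusted p = 0.133). Ppp1r12b, a regulatory subunit of myosin phosphatase, had 10.7, 46.6, 10.5, 26.6 and 24.4 in Reversa and between 6.59 and 13.7 (median 8.48) in COX-2>COX-1 samples (log2 change 1.05, SE 0.31, adjusted p = 0.0318). All its COX-2>COX-1 values and those of Reversa samples 51 and 53 were under 20, and with values of COX-2>COX-1 raised to 20 the fold had a lower bound of 1.01. Wild-type mice had 20.5 ± 6.79 for Ppp1r12b (SD, n = 6). Reversa differed from that level by 0.05 (limma, adjusted p = 0.921) and COX-2>COX-1 by -0.99 (adjusted p = 0.123).

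Hspb1, a small heat shock protein phosphorylated downstream of p38, had 328, 229, 213, 80.9 and 87.4 in Reversa and between 28.6 and 124 (median 74.1) in COX-2>COX-1 samples (log2 change 1.31, SE 0.39, adjusted p = 0.0318). It exceeded all COX-2>COX-1 values in Reversa samples 51, 52 and 53 and lay within their range in the others. Hspb1 was the 1 member of 18 tested in the MAP kinase cascades that passed, and the list's median was -0.03. Rapgef2, an exchange factor for Rap1, had 731, 994, 902, 1266 and 1187 in Reversa and between 1181 and 1792 (median 1455) in COX-2>COX-1 samples (log2 change -0.56, SE 0.18, adjusted p = 0.0459). It was the 1 gene that passed of the 7 tested G proteins, phospholipase C and protein kinase C genes, whose median was -0.17.

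**Figure D3:**
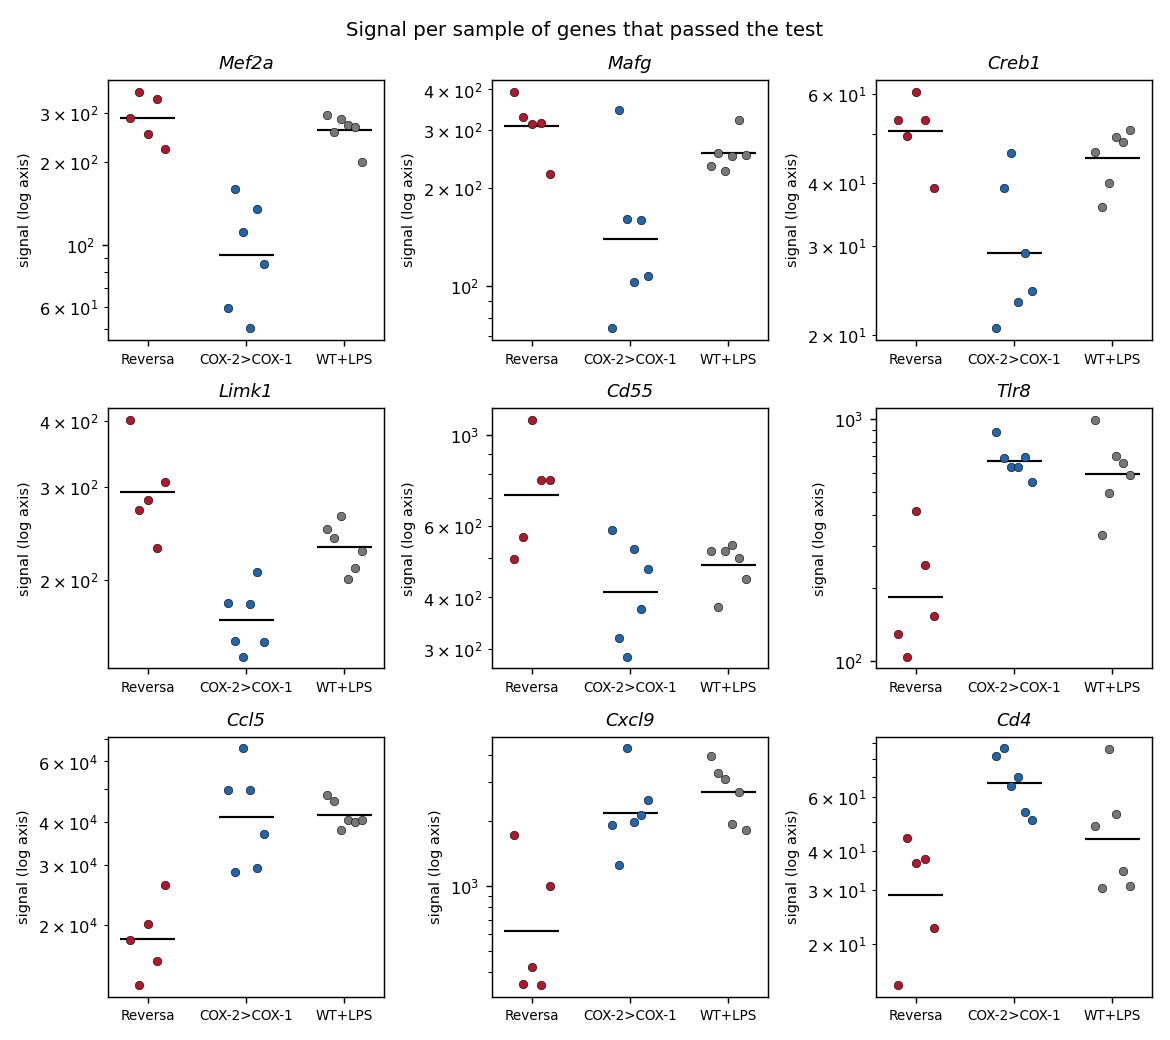
Deposited signal per sample on log axes for 9 genes that passed the test, in Reversa, COX-2>COX-1 and WT+LPS mice; each point is 1 sample and lines are geometric means. Mef2a, Limk1, Tlr8, Ccl5 and Cd4 separate Reversa from COX-2>COX-1 without overlap, whereas Mafg overlaps through COX-2>COX-1 sample 52.

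Tlr8 was the 1 gene that passed of 11 tested Toll-like receptors and adaptors, the sensors of microbial products. Tlr8, an endosomal receptor for single-stranded RNA in humans, had 104, 129, 248, 416 and 153 in Reversa and between 548 and 881 (median 661) in COX-2>COX-1 samples. It was lower in all 5 Reversa samples, by 3.63-fold (log2 change -1.86, SE 0.33, adjusted p = 0.000287). Wild-type mice had 628 ± 221 (SD, n = 6), against which Reversa differed by -1.68 (adjusted p = 0.00124) and COX-2>COX-1 by 0.18 (adjusted p = 0.938). In the list, 2 genes reached an unadjusted p under 0.05, the other being Tlr6 (log2 difference -0.54, interval -1.06 to -0.01, adjusted p = 0.219), and the median was -0.19. In the NF-kB pathway, through which these receptors signal, 0 of 10 genes passed by limma (0 at an unadjusted p under 0.05), and the median was -0.03.

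The chemokines Ccl5 and Cxcl9, which draw T cells and NK cells, were lower in Reversa cells. Ccl5 had 13339, 18018, 15679, 20052 and 26076 in Reversa and between 28580.4 and 65482 (median 43137) in COX-2>COX-1 samples, without overlap (log2 change -1.19, SE 0.21, adjusted p = 0.000287). Wild-type mice had 42109 ± 3926 (SD, n = 6), against which Reversa differed by -1.21 (adjusted p = 0.000509) and COX-2>COX-1 by -0.02 (adjusted p = 0.968). Cxcl9, which interferon gamma induces, had 355, 1724, 350.2, 425 and 997 in Reversa and between 1249 and 4300.2 (median 2049.7) in COX-2>COX-1 samples (log2 change -1.81, SE 0.52, adjusted p = 0.0287). It lay below all COX-2>COX-1 values in 4 Reversa samples, and sample 52 lay within their range. Cxcl10, a relative of Cxcl9 that shares its receptor, was 23730.1 to 55354 in Reversa and 46575 to 74737 in COX-2>COX-1 samples and did not pass (log2 change -0.87, SE 0.41, adjusted p = 0.216). Over 8 monocyte and lymphocyte chemokines, 2 were lower, 0 higher and the median was -0.07.

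Of 17 interferon-stimulated genes, Cxcl9 was the 1 that passed, and 4 reached an unadjusted p under 0.05. Of their log2 differences 15 were negative, against 120 of 202 over all genes, and the median was -0.37 against -0.14 over all genes. At an equal total signal that median became -0.09, against 0.13 over all genes. Mx2 and Ifit2, both antiviral effectors, differed by -0.60 (adjusted p = 0.117) and -0.69 (adjusted p = 0.15). The Mx2 value of COX-2>COX-1 sample 52, at 2978, stood above the others of that genotype, which reached 1799. Irf3, which induces interferon beta, was 25.7 to 33.4 in Reversa and 7.75 to 27.9 in COX-2>COX-1 samples (log2 change 0.60, SE 0.26, adjusted p = 0.15).

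No neutrophil-attracting chemokine or chemokine receptor of that list passed by limma, 0 of 5 (1 at an unadjusted p under 0.05), with a median of -0.67. Cxcl1, a ligand of Cxcr2, was 2979 to 10364 in Reversa and 6834 to 14837 in COX-2>COX-1 samples (log2 change -0.86, SE 0.34, adjusted p = 0.13). Cxcl2, Cxcl3 and Cxcl5 differed by -0.48, -0.67 and -0.84, with intervals that all included 0. Each of these 3 turned positive in at least 1 of the 3 runs taken alone. Csf3, which drives neutrophil production, was just outside the threshold, with 1291, 2346, 1685, 2147 and 4373 in Reversa and between 2937 and 3883 (median 3597) in COX-2>COX-1 samples (log2 change -0.67, SE 0.23, adjusted p = 0.0589).

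Few cytokines passed. Lta, a member of the TNF family made by lymphocytes, had 126, 58.7, 83.6, 67.4 and 51.98 in Reversa and between 97.1 and 175 (median 116) in COX-2>COX-1 samples (log2 change -0.78, SE 0.26, adjusted p = 0.0487). Of the 12 pro-inflammatory cytokines tested it was the 1 that passed, and the median was -0.35. Ltb, its membrane partner, was 98.3 to 515 in Reversa and 341 to 598 in COX-2>COX-1 samples (log2 change -0.74, SE 0.32, adjusted p = 0.15). Tnf was 528 to 1963 in Reversa and 453 to 1388 in COX-2>COX-1 samples, the top COX-2>COX-1 value being that of sample 52, and did not pass (log2 change 0.58, SE 0.31, adjusted p = 0.235). Nos2, the inducible nitric oxide synthase, differed by -0.49 with an interval of -1.40 to 0.43, and Il1rn, the interleukin-1 antagonist, by -0.78 (adjusted p = 0.222).

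Il13, a type 2 cytokine, was higher in Reversa cells. This driver of alternative macrophage activation had 43.4, 76.3, 34.9, 34.5 and 19.3 in Reversa and between 6.58 and 27.9 (median 12.2) in COX-2>COX-1 samples (log2 change 1.53, SE 0.42, adjusted p = 0.0218). In COX-2>COX-1 cells 5 of 6 values were under 20, and with values raised to 20 the gene was at least 1.79-fold higher in Reversa cells. Il5, which supports eosinophils, was 26.3 to 147 in Reversa and 10.99 to 30.4 in COX-2>COX-1 samples and did not pass (log2 change 1.55, SE 0.66, adjusted p = 0.15). Against wild-type mice, at 8.36 ± 6.18 for Il13 (SD, n = 6), Reversa differed by 2.34 (adjusted p = 0.000509) and COX-2>COX-1 by 0.80 (adjusted p = 0.419). Il4, Il9 and Ccr3, the others of 5 genes listed for mast cells and eosinophils, were under the filter. Their values ran from 2.86 to 43.3 in Reversa and from 1.22 to 19.3 in COX-2>COX-1 samples, and all 3 were under 20 in every COX-2>COX-1 sample. Il4, Il5, Il9 and Il13 are on the list of lymphocyte cytokines as well. The part of mast cells, eosinophils or lymphocytes in the Il13 result was not tested.

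The lists of alternative activation and lymphocyte cytokines each had Il13 as their 1 gene that passed, of 15 and 5 tested. Their medians were -0.29 and 0.74. Retnla, a marker of alternative activation, was 4640.1 to 17124 in Reversa and 13714 to 20330.3 in COX-2>COX-1 samples (log2 change -0.80, SE 0.33, adjusted p = 0.148), the opposite sign to Il13. Il17a ranged from 90.6 to 8634 among Reversa samples and from 355 to 1446 among COX-2>COX-1 samples (log2 change 0.74, SE 0.73, adjusted p = 0.489), with 3 Reversa samples above and 2 below the COX-2>COX-1 range. Ccr2, the receptor of Ccl2 that marks inflammatory monocytes, differed by 0.62 (interval 0.14 to 1.10, adjusted p = 0.115).

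Among surface and complement genes, Cd55 was higher and C1qa, Cd4 and H2-Ea-ps were lower in Reversa cells. Cd55, decay-accelerating factor, which protects cells from complement, had 562, 498, 775, 1087 and 774 in Reversa and between 287 and 585 (median 422) in COX-2>COX-1 samples (log2 change 0.78, SE 0.21, adjusted p = 0.0172). It lay above the COX-2>COX-1 range in samples 53, 54 and the mean of 55 and 56. C1qa, a chain of the complement component C1q that tissue macrophages make, had 2387, 3549, 3414, 4844 and 5844 in Reversa and between 3870.1 and 8250.0 (median 7027) in COX-2>COX-1 samples (log2 change -0.78, SE 0.24, adjusted p = 0.0421). Its partner chain C1qb differed by -0.47 (adjusted p = 0.222). Of the 10 complement genes tested 1 was higher and 1 lower, with a median of -0.10.

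C1qa was also the 1 of 10 macrophage markers that passed. The median of that list was -0.44, 8 of the 10 differences were negative, and the summed signal of its members was 19822 to 49530.0 in Reversa and 36153 to 53011 in COX-2>COX-1 samples. Tyrobp, the adaptor of Trem2, was 4224 to 9097 in Reversa and 8457 to 10048 in COX-2>COX-1 samples (log2 change -0.46, SE 0.19, adjusted p = 0.15), and Trem2, a lipid receptor, differed by -0.92 with 3 of 5 Reversa values under 20. Under the 4 other scalings the median of the markers ran from -0.17 at an equal total signal to -0.38 with 4 reference genes. The median over all genes was 0.13 and -0.08 under these. A scaling moves all genes by nearly the same amount, so it does not test the markers against other genes. The part of macrophage number in the lower genes was not tested.

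Cd4, a marker of helper T cells that some macrophages also carry, had 44.2, 14.7, 37.9, 36.8 and 22.5 in Reversa and between 50.8 and 86.4 (median 67.5) in COX-2>COX-1 samples. Every Reversa value was below every COX-2>COX-1 value (log2 change -1.17, SE 0.26, adjusted p = 0.00398). Of the 5 T cell and NK cell markers tested, Cd4 was the 1 that passed, and the median was -0.79. The other markers Il2, Il21 and Ccr4 were under 20 in all samples of both genotypes. Ifng and Cd40lg, which activated T cells make, differed by -0.79 (interval -1.76 to 0.18) and -0.82 (interval -1.66 to 0.01). Cd40lg was under 20 in 3 of 5 Reversa and 2 of 6 COX-2>COX-1 samples. With Reversa values under 20 raised to 20, the lower bound of its fold was 1.07. Il17a was the 1 tested marker with a positive difference, 0.74 (interval -0.75 to 2.24). Its signal reached 8634 in Reversa and 1446 in COX-2>COX-1 samples. The summed signal of the 5 markers was 869.9 to 8914 in Reversa and 819 to 2012 in COX-2>COX-1 samples. The part of T cells in the Cd4 and Lta results was not tested.

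H2-Ea-ps, by its symbol a pseudogene of the MHC class II E alpha chain, had 39.1, 19.1, 39.4, 15.3 and 13.1 in Reversa and between 34.1 and 75.2 (median 42.8) in COX-2>COX-1 samples (log2 change -1.0, SE 0.33, adjusted p = 0.0487). Reversa values were under 20 in 3 of 5 samples, and raised to 20 they put the gene at least 1.78-fold lower. H2-Eb1, the class II E beta chain, differed by -0.53 (adjusted p = 0.222). All 4 genes of class II and costimulation had negative differences, with a median of -0.41. Flt1, a receptor for vascular endothelial growth factor found on endothelium and monocytes, had 45.95, 82.9, 59.2, 57.2 and 142 in Reversa and between 21.6 and 60.9 (median 39.9) in COX-2>COX-1 samples (log2 change 0.95, SE 0.30, adjusted p = 0.0421). It was counted among 3 tested mesothelial and stromal markers, of which the other 2 did not pass, and 4 further markers of that list were under 20 in all samples of both groups. Neutrophil markers had a summed signal of 17.2 to 309 in Reversa and 58.1 to 174 in COX-2>COX-1 samples, with Cxcr1 under 20 throughout, and none of the 4 B cell markers passed (1 at an unadjusted p under 0.05, median -0.38).

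In 8 further lists 0 genes passed by limma. Type 2 chemokines (3 tested, 1 at an unadjusted p under 0.05) had a median of -0.37, cytokine receptors and antagonists (7 tested, 1) of -0.33, and interferons with their transcription factors (7 tested, 1) of -0.21. The medians of NOD-like receptors with Ripk2 (4 tested, 0), of TGF-beta ligands, receptor and Smad7 (5 tested, 0) and of chemokine receptors (4 tested, 2) were -0.06, 0.06 and 0.17. Colony-stimulating factors (3 tested, 2) had a median of 0.27. The HMG alarmins with Ager, chromatin proteins that signal damage when released and their receptor, had a median of 0.42 (4 tested, 1), all 4 differences being positive; Hmgb2 differed by 0.98 (interval 0.06 to 1.90, adjusted p = 0.201), with 3 of 6 COX-2>COX-1 values under 20.

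**Figure D4:**
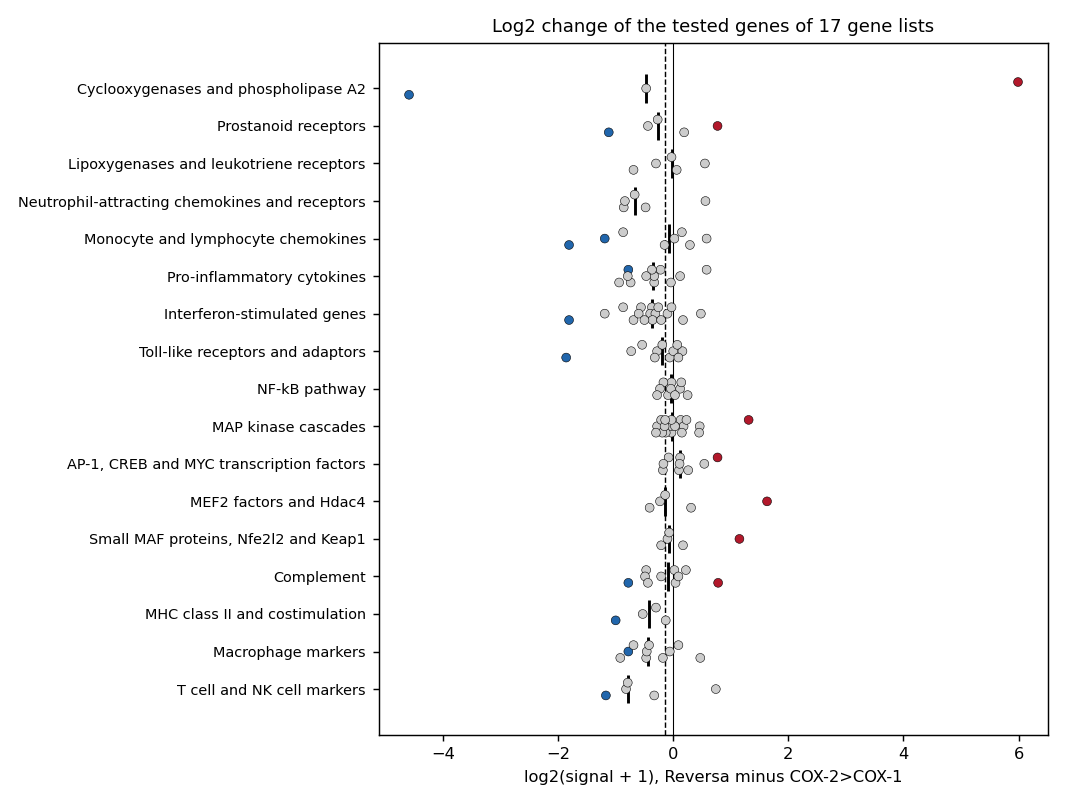
Log2(signal + 1) difference, Reversa minus COX-2>COX-1, of every tested gene in 17 gene lists; red and blue points passed as higher and lower, grey points did not, black ticks are list medians and the dashed line is the median of all 202 genes at -0.14. The monocyte and lymphocyte chemokines are the 1 list shown with 2 genes that passed in the same direction, Ccl5 and Cxcl9, both lower.

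Samples of each genotype were measured in 3 runs, 2 lanes per genotype and run, with Reversa in lanes 9 and 10 and COX-2>COX-1 in lanes 5 and 6 of every run, so lane position and genotype cannot be told apart. Within each run taken alone, all 22 genes kept their direction. The 22 were chosen by the fit of these same samples, so this agreement is not an independent test. Mef2a differed by 1.71, 1.94 and 1.04 in runs 1, 2 and 3, and Tlr8 by -2.73, -0.98 and -2.01. Ccl5 differed by -1.28, -1.68 and -0.33, Limk1 by 0.98, 0.66 and 0.78 and Cd4 by -1.67, -0.84 and -1.18. The spread between runs was wide for Flt1, at 0.75, 0.37 and 2.23, and for Hspb1, at 1.41, 1.85 and 0.21. Run 3 holds a single Reversa value, the mean of samples 55 and 56, taken to vary like the other groups. With run as a block, 21 of the 22 genes passed, H2-Ea-ps being the exception (adjusted p = 0.067).

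**Figure D5:**
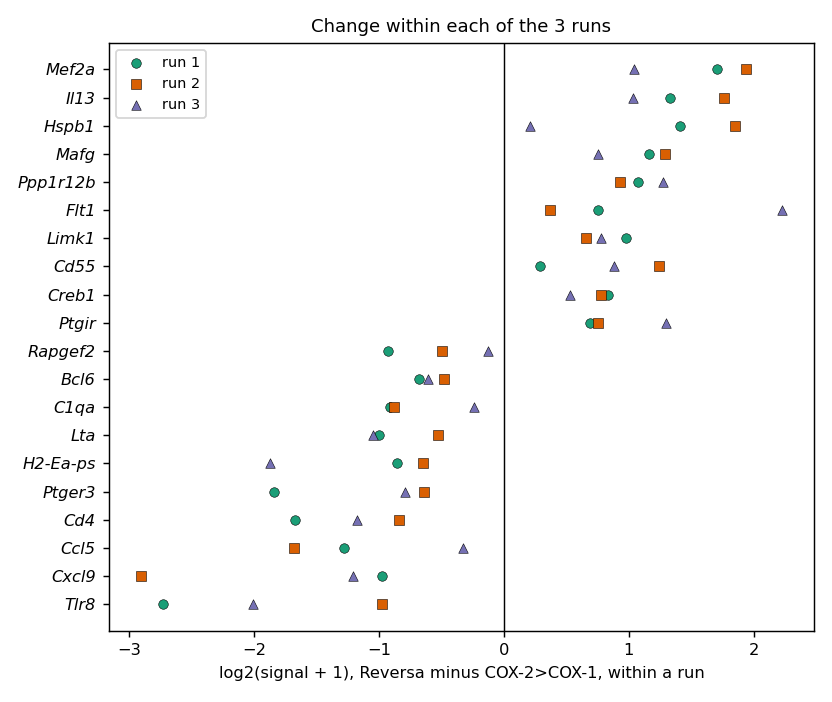
Log2(signal + 1) difference, Reversa minus COX-2>COX-1, within each of the 3 runs for the 20 genes other than Ptgs1 and Ptgs2 that passed; circles, squares and triangles are runs 1, 2 and 3. All points of a gene lie on the same side of 0, and those of Hspb1, Rapgef2 and C1qa come near 0 in run 3. The genes were chosen by the fit of the same samples.

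Leaving out each of the 11 samples in turn gave 11 to 25 genes past the threshold. Ptgs1, Ptgs2, Mef2a, Tlr8, Cd4, Limk1, Ccl5 and Mafg passed in all 11 repeats. Calls were lost when 1 sample was left out for Cd55 (without Reversa sample 54, adjusted p = 0.062), Creb1 (without COX-2>COX-1 sample 54 or Reversa sample 54, 0.052 and 0.056) and Il13 (without COX-2>COX-1 sample 53 or Reversa sample 52, 0.053 and 0.08). Cxcl9 lost its call without COX-2>COX-1 samples 53 or 56 or Reversa samples 51, 53 or 54 (highest adjusted p 0.074). Hspb1, Ppp1r12b, Flt1, Ptgir, Lta, H2-Ea-ps, C1qa, Rapgef2, Ptger3 and Bcl6 lost theirs in 6 to 9 of the 11 repeats. Without Reversa sample 51 the difference in Ptger3 was -0.73, against -1.12 with it. Without both Reversa sample 51 and COX-2>COX-1 sample 52, a setting chosen after seeing the data, 28 genes passed, 18 higher and 10 lower, and 20 of the 22 were among them, Rapgef2 and Ptger3 being lost.

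The same exchange at the Ptgs2 locus can be read with a native Ptgs1 locus, as COX-1>COX-2 against WT+LPS. The difference between both effects passed for 4 of 202 genes (1.98%), and 18 reached an unadjusted p under 0.05. The 4 include Ptgs1 and Ptgs2, the exchanged genes, whose levels follow from the genotypes. Mef2a also passed, by 1.62 on the log2 scale (SE 0.37, adjusted p = 0.0102), with COX-1>COX-2 mice at 280 ± 97.1 and wild-type mice at 263 ± 34.1 (SD, n = 6 each). Csf2, a growth factor for macrophages and granulocytes, was the other gene apart from Ptgs1 and Ptgs2 (difference 2.08, SE 0.55, adjusted p = 0.0424). Its signal was 21.04, 60.9, 85.1, 139 and 91.6 in Reversa and between 22.8 and 50.3 (median 37.1) in COX-2>COX-1 samples (log2 change 0.95, SE 0.40, adjusted p = 0.15), and averaged 16.5 ± 7.32 in COX-1>COX-2 and 35.7 ± 13.5 in wild-type mice (SD, n = 6 each). The Csf2 call was lost without COX-2>COX-1 samples 51, 55 or 56 and without any Reversa sample except 51 (highest adjusted p 0.14). It was also lost with run as a block (adjusted p = 0.068), at an equal median (0.057), with no filter (0.054) and with a prior variance that follows the mean (0.054). Against WT+LPS, 17 genes (8.42%) passed in Reversa and 2 (0.99%) in COX-2>COX-1 mice, which were Ptgs1 and Mef2a; these comparisons share the wild-type samples.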

How the data were processed

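Peritoneal macrophage RNA (integrity number 7.0 or more, brought to 20 ng/µl per the labels' protocols) was hybridised to an nCounter panel, where barcoded probes are counted one by one and nothing is amplified. The authors deposited a normalized signal per gene and sample. The software and steps are not given in the sources used here. The values show a floor of 1, whole steps in each lane, and a geometric mean of Cltc and Gapdh equal within 0.01% in 30 of 30 lanes, so a change is relative to these 2 genes. The other reference genes were not held equal. Of 240 negative control values, 1 exceeded 20. A second deposited table had equal values. No column lacked a sample.

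The values are not counts, so log2(signal + 1) was fitted with limma 3.58.1 in R 4.3.3 (lmFit, eBayes, a mean per group, 29 samples), which understates changes of low genes. Genes under the filter numbered 46, of which 39 were under 20 in all Reversa and COX-2>COX-1 samples. Folds are bounds where most samples of a group were under 20. Members, gene lists and tests were chosen with earlier results of these data known. Of the lists, 1 is not reported here. Named genes are Ptgs1, Ptgs2, every gene past the threshold, up to 4 genes of smallest p per list and up to 5 in the difference between exchange effects; Il2, Il4, Il9, Il21, Ccr3, Ccr4 and Cxcr1 are named as markers below the filter. All 254 panel genes matched the RefSeq table, 7 under another symbol. Python 3.11.15 with scipy 1.17.1 served for permutation, and matplotlib 3.10.9 for the plots. Alternatives were 4 scalings, 2 other filters, a pseudocount of 10, fewer groups, Reversa 55 and 56 treated otherwise, a prior variance that follows the mean, runs and replicate numbers as blocks, single runs and single samples left out.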

Additional observations from a re-analysis of the deposited data

Results flagged for a closer look

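Of 100 sets of values (1 gene in 1 genotype) examined, 6 had a sample set apart from the others by Dixon's criterion. Chance would give about 1 in 20 for independent sets. These sets share the same 11 samples, so that rate cannot be set directly against the share found. The sample set apart was numbered 52 in all 6, a number that names a different sample in each genotype. Reversa sample 52 had 2569 for Il1rn, the others 577 to 914, and 33.4 for Irf3, the others 25.7 to 27.9. COX-2>COX-1 sample 52 had 346 for Mafg (others 74.3 to 161), 357 for Cxcl5 (others 16.4 to 74.6), 2978 for Mx2 (others 1277 to 1799) and 1388 for Tnf (others 453 to 609). Both samples came from run 1.

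The effect of the exchange at the Ptgs2 locus, read with an exchanged minus a native Ptgs1 locus, differed by the limma test of the difference itself in Mef2a (1.62 on the log2 scale), Csf2 (2.08), Ptgs1 (5.07) and Ptgs2 (6.49). For Ptgs1 and Ptgs2 a group lay near the floor, so these are fitted values and not bounds. Ptgs1 averaged 2.47 in COX-2>COX-1 and Ptgs2 1.25 in COX-1>COX-2 mice. Both are the exchanged genes, so their differences follow from the genotypes.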

How the results depend on the processing

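Against 22 genes (11 higher, 11 lower) in Reversa over COX-2>COX-1 cells, an equal total signal gave 29 (24 and 5), all 6 reference genes and 4 of them each 16 (11 and 5), an equal median 15 (11 and 4), no filter 14 (9 and 5), and a fit of the 2 groups alone 9 (4 and 5). Runs 1, 2 and 3 alone gave 4 (1 and 3), 12 (8 and 4) and 13 (5 and 8). Leaving out 1 sample gave 11 to 25 genes, 6 to 16 higher and 5 to 11 lower. Without Reversa sample 51 and COX-2>COX-1 sample 52, chosen after seeing the data, 28 passed (18 and 10). The other alternatives, the replicate block below apart, gave 17 to 26. Ptgs1, Ptgs2, Mef2a, Tlr8 and Cd4 passed under all 26 alternatives other than single runs. No gene that passed, all chosen on these same samples, changed direction. Some that had not passed did: Csf3 (0.20), Cxcl2 (0.72), Alox15 (0.41), Pla2g4a (0.57) and Nos2 (0.43) in run 3, Cxcl3 (0.50), Cxcl5 (1.24) and Ptger4 (0.04) in run 2, Il17a (-2.10) and Nos2 (0.02) in run 1, and Cxcl5 (0.31) without both samples. The cause was not tested.

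The replicate numbers did not pair the samples: deviations of same-numbered samples correlated at -0.30 to 0.23. With them as a replicate block on the 2 groups alone, 7 genes passed (3 higher, 4 lower). Of these, 6 were among the 22 (Ptgs1, Ptgs2, Mef2a, Tlr8, Cd4 and Il13) and the other was Ifi44, named here after its values were seen. The other 16 did not pass (adjusted p of 0.073 to 0.25), among them 3 of the 9 that passed in the 2 groups without the block, Limk1, Ccl5 (0.073 each) and Cxcl9 (0.11).

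Signals under 20 cannot be told from background.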
